A study of Macaca mulatta with 20 samples.

Results

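The pericyte and smooth muscle markers described here are the 10 genes ACTG2, MYH11, MYL9, TAGLN, CNN1, LMOD1, SYNPO2, NOTCH3, CSPG4 and MCAM, measured in the corpus luteum of the rhesus macaque. They were taken as every row of the deposited array table whose probe set carries 1 gene symbol that equals one of these names. That rule found all 10 genes, among 14132 genes measured, and 23 probe sets, among 52707 tested. A probe set is the group of short array probes that reports 1 transcript or part of it. TAGLN and LMOD1 have 2 probe sets each, as do NOTCH3 and SYNPO2, while ACTG2, CSPG4 and MCAM have 3 each, MYH11 has 4, and MYL9 and CNN1 have 1 each. A gene's value is that of its probe set of highest mean across the 20 arrays, unless another probe set is named.

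After ovulation the ruptured follicle turns into the corpus luteum, which secretes progesterone and breaks down when no pregnancy follows. It was collected on days 3 to 5 (early), 7 to 8 (mid), 10 to 12 (mid-late), 14 to 16 (late) or 18 to 19 (very-late) after the midcycle surge of luteinizing hormone. Each of the 5 stages had 4 corpora lutea, each on its own Affymetrix rhesus array. All came from females with normal menstrual cycles, no stage was given a drug or hormone, and the study used the early stage as its baseline. The series describes the very-late stage as the time of menses and of structural breakdown, and the late stage as the time when progesterone secretion stops.

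Pericytes and vascular smooth muscle cells, together called mural cells, wrap the endothelium of capillaries and larger vessels. Smooth muscle contracts when a kinase phosphorylates the regulatory light chain of myosin, which then pulls on actin filaments held in place by actin-binding proteins. Notch signalling from endothelial cells and growth factors of the PDGF family are known to recruit mural cells and hold them on the vessel. In the corpus luteum, pericytes are known to arrive with the vessels that invade the ruptured follicle.

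The 20 arrays had medians between 3.88 and 3.98 on the log2 scale, and each array correlated at 0.973 to 0.996 with the rest of its stage. The array's 683 probe sets for viral genomes, used here as a background, had a median of 3.42 and a 95th percentile of 4.30. The highest probe set of each of the 10 genes lay above 4.30 in its mean at every stage, while the lowest probe sets of MYH11, CSPG4, SYNPO2 and ACTG2 lay below it at all 5 stages. By 6 probe sets of the mitochondrial genome the arrays fell into 13 with means of 11.50 to 12.45 and 7 with means of 7.02 to 8.93. The 7 comprised every mid array together with replicate 4 of the early, 1 of the mid-late and 2 of the very-late stage. Very-late replicate 1 had the widest gap between the 3′ and 5′ probe sets of GAPDH, 2.70 on the log2 scale, against 0.831 to 1.78 in the other 19 arrays. Because this is bulk tissue, fewer mural cells and less RNA of these genes per cell cannot be told apart. Nor can either be told apart from changes in other cells that carry these genes, or in the share of other cell types.

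At the very-late stage ACTG2, MCAM, MYL9, TAGLN and CSPG4 were lower than at the late stage, while MYH11, LMOD1, SYNPO2, NOTCH3 and CNN1 did not pass the test. An adjusted p under 0.05 in limma, adjusted over all 52707 probe sets, counts as passing. In very-late against late, 10 of the 23 probe sets fell and 0 rose, where 7.03% of all probe sets fell and 6.75% rose. The median log2 difference of the 10 genes was -0.48, against 0.02 over all probe sets. In very-late against early, 10 of the 23 fell and 0 rose, where 9.21% of all probe sets fell and 9.45% rose. The 10 belonged to 6 genes, the same 5 and CNN1. Any difference among the 5 stages was called for 10 of the 23 probe sets and 5 of the 10 genes (ACTG2, MCAM, MYL9, TAGLN and CSPG4), where 21.5% of all probe sets were called. The highest probe set of each of the 10 genes is among the 26353 left when the dimmer 50% are set aside. Of these brighter probe sets 41.1% were called, a share near 5 of 10 genes. In either direction, 26.6% of them passed in very-late against late and 34.7% in very-late against early.

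**Figure D1:**
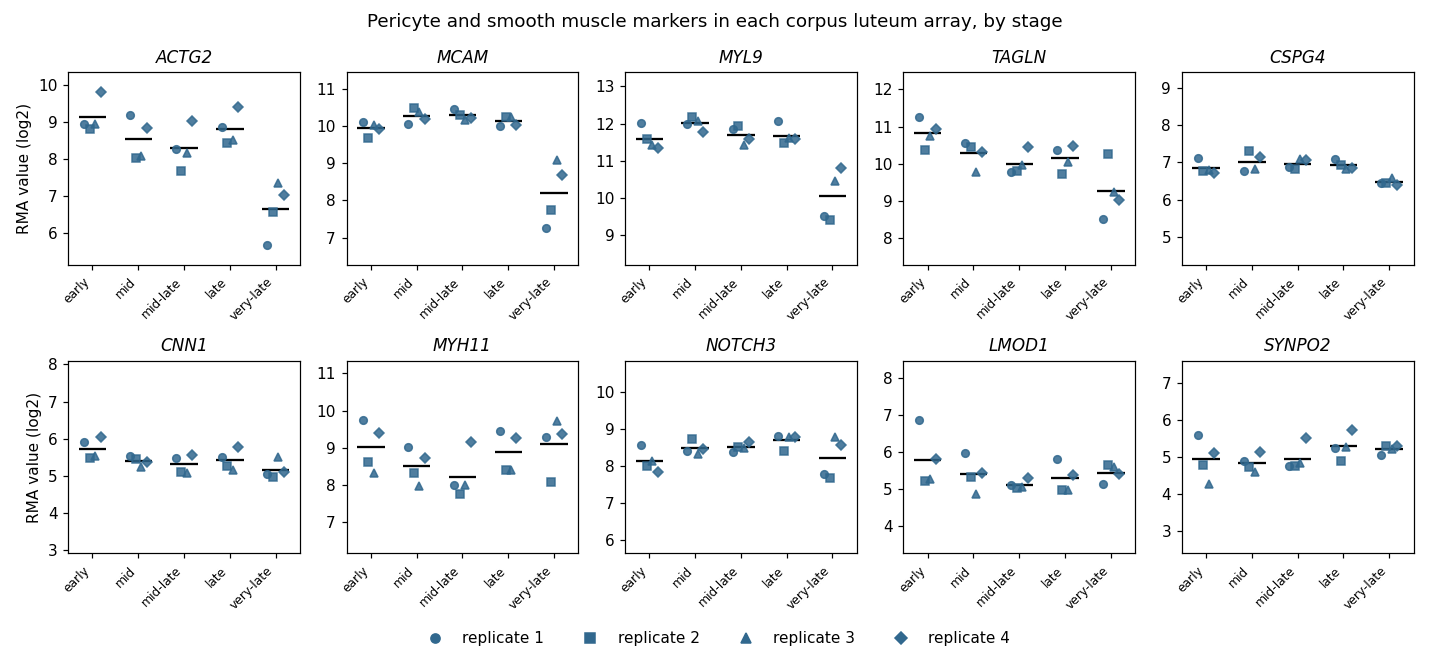
Log2 array value (vertical axis) of the 10 markers at the 5 stages (horizontal axis, early to very-late). Each point is 1 array, the marker shape gives its replicate number and the bar is the mean of 4 arrays, and all panels span the same number of log2 units. The very-late arrays of ACTG2 (5.68 to 7.36), MCAM (7.24 to 9.10) and MYL9 (9.41 to 10.81) lie below every other array, whereas those of MYH11 (8.08 to 9.71) overlap the other stages.

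Of the contractile filament proteins, ACTG2, the smooth muscle gamma actin, had the largest difference of the 10 genes in both comparisons. ACTG2 had log2 values of 5.68, 6.56, 7.36 and 7.02 in the very-late arrays, against 8.87, 8.43, 8.52 and 9.39 in the late arrays. All 4 very-late arrays lay below all 4 late arrays, with more than 1 log2 unit between the groups. The difference was -2.15 ± 0.37 (SE), a 4.43-fold fall with an adjusted p of 0.000469. In the early arrays ACTG2 had 8.95, 8.81, 8.93 and 9.82, so very-late was lower by 5.54-fold (log2 difference -2.47 ± 0.37, adjusted p = 7.71e-05). The stage means ran 9.13, 8.53, 8.29, 8.80 and 6.66 from early to very-late. In the order of levels, very-late stood apart from mid-late, the next lowest stage (-1.63, adjusted p = 0.00371), and no other neighbours passed. The difference from mid-late no longer passed with very-late replicates 1 and 2 left out together, when it was -1.09.

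The other ACTG2 probe sets did not all follow. The second fell by 2.39 ± 0.42 in very-late against late (adjusted p = 0.000615) and by 3.22 ± 0.42 in very-late against early (adjusted p = 1.97e-05). In mid-late against early it was the 1 marker probe set of 23 that passed, at -1.62 ± 0.42 (adjusted p = 0.0386), where 2.1% of all probe sets fell. Its 4 mid-late arrays lay below its 4 early arrays, but the call was lost without any 1 of the early arrays or of mid-late replicates 1 to 3. The first probe set was -0.84 ± 0.37 there and did not pass (adjusted p = 0.264), and the third lay in the background at all stages. Actins are close relatives in sequence, and whether the ACTG2 probes also take up other actin transcripts was not tested.

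MYH11, the smooth muscle myosin heavy chain and a usual mark of mature smooth muscle, did not pass. MYH11 had log2 values of 9.27, 8.08, 9.71 and 9.36 in the very-late arrays, against 9.44, 8.40, 8.40 and 9.26 in the late arrays. The groups overlapped fully, and the difference was 0.23 ± 0.40 (adjusted p = 0.802). Against the early arrays, at 9.74, 8.62, 8.32 and 9.38, it was 0.09 ± 0.40 (adjusted p = 0.924). None of the 4 MYH11 probe sets passed in any comparison, nor in the test of any difference between stages (adjusted p = 0.385 for the first). The lowest stage mean of MYH11 was that of mid-late, 8.22, and the highest that of very-late, 9.11, a difference of 0.89. It passed with the replicate number as a block (adjusted p = 0.0438) and without very-late replicate 2 (1.23, adjusted p = 0.0326), but not in the fit used throughout.

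MYL9, the regulatory light chain of smooth muscle and non-muscle myosin, fell by more than 1 log2 unit. MYL9 had log2 values of 9.51, 9.41, 10.46 and 10.81 in the very-late arrays, against 12.06, 11.47, 11.60 and 11.57 in the late arrays. The groups did not overlap, and the fall was 1.63 ± 0.25 on the log2 scale (adjusted p = 0.000179). Against the early arrays, at 12.03, 11.58, 11.42 and 11.33, MYL9 fell by 1.54 ± 0.25 (adjusted p = 0.000202). Stage means were 11.59, 12.01, 11.70, 11.68 and 10.05 from early to very-late, and only the step from very-late to early, its next neighbour in level, passed. Very-late replicates 1 and 2 were the lowest of the 4, and without both of them the fall was 1.04 against late and 0.95 against early, both still past the test.

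Among the actin-binding proteins, TAGLN (transgelin or SM22, a calponin family protein of smooth muscle) had its highest mean at the early stage and its lowest at the very-late stage. TAGLN averaged 10.82, 10.28, 10.00, 10.15 and 9.25 from early to very-late, and no neighbouring pair in that order of levels passed the test. TAGLN had log2 values of 8.51, 10.25, 9.24 and 9.02 in the very-late arrays, against 11.24, 10.36, 10.75 and 10.94 in the early arrays. All 4 very-late arrays were lower than the early ones, by 1.57 ± 0.29 on average (adjusted p = 0.000735). Against the late arrays, at 10.36, 9.72, 10.05 and 10.47, the groups overlapped through very-late replicate 2.

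The call of TAGLN in very-late against late was borderline. The difference was -0.90 ± 0.29 with an adjusted p of 0.0499. It passed in 13 of 30 alternative settings, with adjusted p-values between 0.0022 and 0.174. With very-late replicate 1 left out it was -0.65 and did not pass (adjusted p = 0.174), and with very-late replicate 2 left out it was -1.23 and passed (adjusted p = 0.0022). It also failed to pass without very-late replicate 3 or 4, late replicate 1, 3 or 4, early replicate 3 or 4, or any of 6 mid and mid-late arrays. With the replicate number as a block it did not pass (adjusted p = 0.0745). The second TAGLN probe set had -1.14 ± 0.34 in very-late against late (adjusted p = 0.0295) and -1.76 ± 0.34 in very-late against early (adjusted p = 0.000942).

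CNN1, calponin 1, an actin-binding inhibitor of myosin activity, fell in very-late against early. CNN1 had log2 values of 5.05, 4.97, 5.51 and 5.09 in the very-late arrays, against 5.90, 5.47, 5.52 and 6.03 in the early arrays. The difference was -0.57 ± 0.16 (adjusted p = 0.0146), and the groups overlapped through very-late replicate 3. The call was lost in a fit on the 8 arrays of the 2 stages (adjusted p = 0.0591), without early replicate 4 (adjusted p = 0.0592), without very-late replicates 1 and 2 (adjusted p = 0.165) and on the 13 arrays with high mitochondrial values (adjusted p = 0.19). In very-late against late the difference was -0.26 ± 0.16 (adjusted p = 0.346).

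LMOD1 and SYNPO2 did not pass in any comparison. LMOD1, leiomodin 1, starts new actin filaments in smooth muscle, and its very-late minus late difference was 0.16 ± 0.30 (adjusted p = 0.823). Its arrays ranged from 5.21 to 6.87 at early, 4.97 to 5.83 at late and 5.15 to 5.66 at very-late, so all 3 stages overlapped. SYNPO2, synaptopodin 2 or myopodin, links actin bundles to the Z-disc and its smooth muscle counterparts. It had arrays of 4.26 to 5.59 at early, 4.89 to 5.73 at late and 5.04 to 5.30 at very-late, with a very-late minus late difference of -0.07 ± 0.23 (adjusted p = 0.904). The lowest SYNPO2 array, early replicate 3, lay below the background limit of 4.30.

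**Figure D2:**
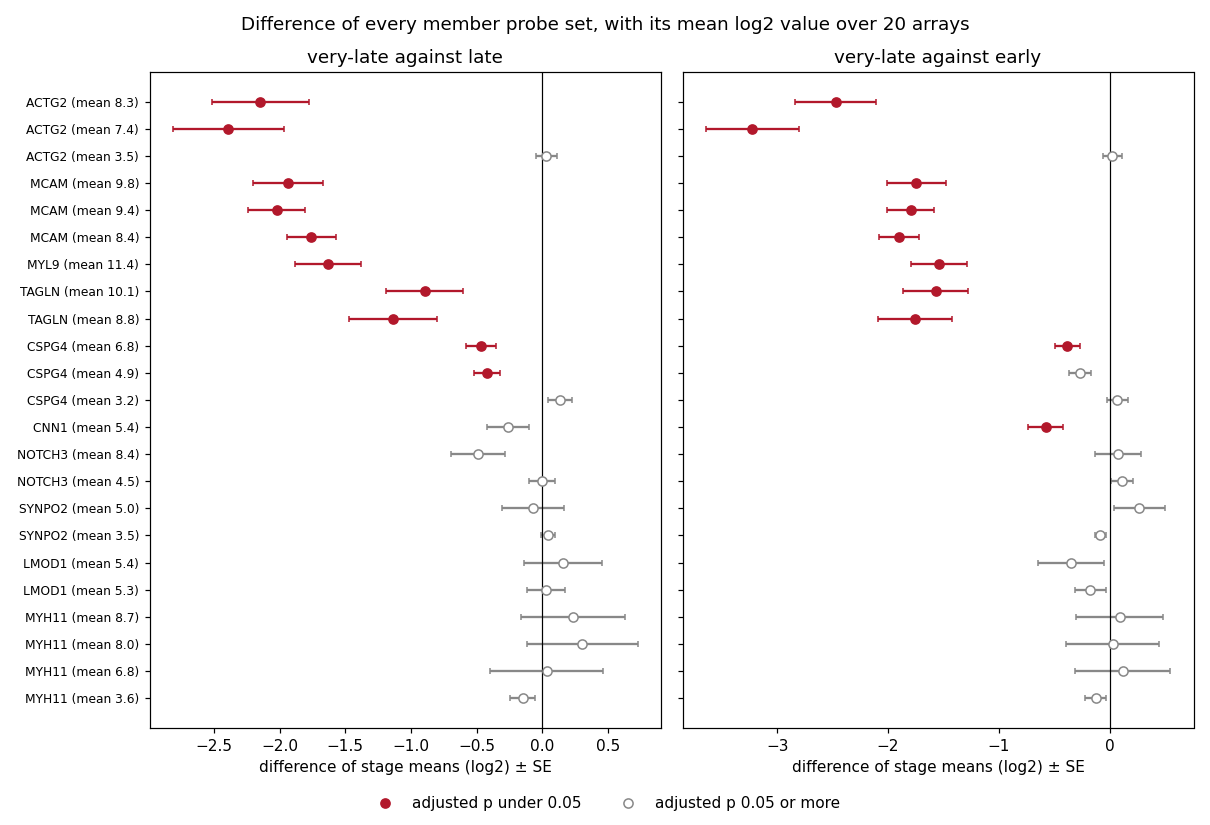
Difference in log2 value for all 23 probe sets of the 10 markers (rows), very-late minus late on the left and very-late minus early on the right, with bars of ±1 SE. Filled red points passed at an adjusted p under 0.05, and open points did not. The probe sets that passed are all to the left of 0, from -0.42 to -2.39 against late. None of MYH11, LMOD1, SYNPO2 or NOTCH3 passed, although the first NOTCH3 probe set lies at -0.49 against late.

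Of the cell surface markers, MCAM (CD146, an adhesion molecule of pericytes that endothelial cells also carry) fell by nearly as many log2 units as ACTG2. MCAM had log2 values of 7.24, 7.75, 9.10 and 8.69 in the very-late arrays, against 10.01, 10.26, 10.24 and 10.03 in the late arrays. All 4 very-late arrays lay below all late arrays, and replicates 1 and 2 lay lowest. The difference was -1.94 ± 0.27, a 3.83-fold fall (adjusted p = 5.68e-05). Very-late against early, where the early arrays had 10.13, 9.68, 10.03 and 9.92, gave -1.74 ± 0.27 (adjusted p = 0.000108).

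All 3 MCAM probe sets moved together. The other two had -2.02 ± 0.22 and -1.76 ± 0.18 in very-late against late (adjusted p = 3.60e-06 and 2.96e-06). From early to late the MCAM means stayed between 9.94 and 10.30, and no neighbours in the order of levels passed before the step to very-late. The spread of the 4 very-late arrays (SD 0.85) was wider than in any other stage (SD 0.13 to 0.19). Without very-late replicates 1 and 2 the fall was 1.24 against late and 1.04 against early, both still past the test.

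CSPG4, the NG2 proteoglycan that covers pericytes, fell by a smaller amount. CSPG4 had log2 values of 6.45, 6.44, 6.59 and 6.38 in the very-late arrays, against 7.09, 6.93, 6.83 and 6.86 in the late arrays. The groups did not overlap, and the fall was 0.46 ± 0.11 on the log2 scale (adjusted p = 0.00909). Against the early arrays, at 7.12, 6.76, 6.80 and 6.70, it fell by 0.38 ± 0.11 (adjusted p = 0.0242). The second probe set fell by 0.42 ± 0.10 against late (adjusted p = 0.00629) and was -0.26 ± 0.10 against early (adjusted p = 0.0735), and the third lay in the background. The call against late was lost without very-late replicates 1 and 2 together (-0.44, adjusted p = 0.0765). The call against early was lost in 5 of 30 settings, which were cyclic loess scaling, no very-late replicates 1 and 2, no early replicate 1 (-0.29, adjusted p = 0.0926), no very-late replicate 1 (-0.37, adjusted p = 0.0504) and no very-late replicate 4 (-0.35, adjusted p = 0.0628).

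NOTCH3, the Notch receptor of mural cells, had its highest mean at the late stage. Its means were 8.13, 8.48, 8.50, 8.70 and 8.21 from early to very-late, and no neighbours in that order of levels passed. NOTCH3 had log2 values of 7.79, 7.67, 8.80 and 8.57 in the very-late arrays, against 8.81, 8.41, 8.78 and 8.78 in the late arrays. Very-late replicates 1 and 2 lay below all late arrays and replicates 3 and 4 within them. The difference was -0.49 ± 0.21 (adjusted p = 0.143), and without very-late replicate 3 it was -0.69 and passed (adjusted p = 0.0211). Late against early was 0.56 ± 0.21 (adjusted p = 0.118) and passed without early replicate 1 (0.71, adjusted p = 0.0495). Without very-late replicates 1 and 2 together, late against early passed (adjusted p = 0.0133), and very-late against early was 0.55 and passed too (adjusted p = 0.0324), against 0.07 ± 0.21 with all arrays. Its second probe set lay near the background and passed nowhere.

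Before the very-late stage few marker differences were called. In mid against early 0 of 23 probe sets passed in limma, where 0.362% of all probe sets did, and 2 of the 23 had an unadjusted p under 0.05. In mid-late against early 1 passed, where 3.73% of all probe sets did, and 6 had an unadjusted p under 0.05. In late against early 0 passed, where 7.58% of all probe sets did, and 3 had an unadjusted p under 0.05. Mid-late against mid gave 0, where 0.0114% of all did, with 0 at an unadjusted p under 0.05, and late against mid-late gave 0, where 0.0114% did, with 1. The other comparisons used for the order of levels gave 0 of 23 in late against mid (2.17% of all, 1 unadjusted). They gave 10 lower in very-late against mid (9.18% of all lower) and 9 lower in very-late against mid-late (8.58% of all lower). The comparisons with the very-late stage share the same 4 very-late arrays, so their counts are not independent.

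Whether 2 markers changed by different amounts was tested within arrays, as the difference between 2 genes in the same array. In very-late against late, the change of ACTG2 minus that of MYH11 was -2.38 log2 units, and for MCAM and MYL9 against MYH11 it was -2.17 and -1.86. In each of these pairs the 4 very-late arrays lay apart from the 4 late arrays. The groups lay apart in 19 of the 45 pairs in very-late against late and in 20 of 45 in very-late against early. All 45 pairs were tested in very-late against late and in very-late against early, 90 tests in all, each by an exact permutation test (two-sided, 70 permutations). This design allows no p below 0.0286, and the smallest adjusted p reached was 0.0659, so none passed. TAGLN against MYH11 gave -1.13 with overlapping groups (exact permutation p = 0.143). MCAM minus CSPG4 gave -1.47, also with an adjusted exact permutation p of 0.0659. In very-late against early, ACTG2 minus MYH11 gave -2.56.

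**Figure D3:**
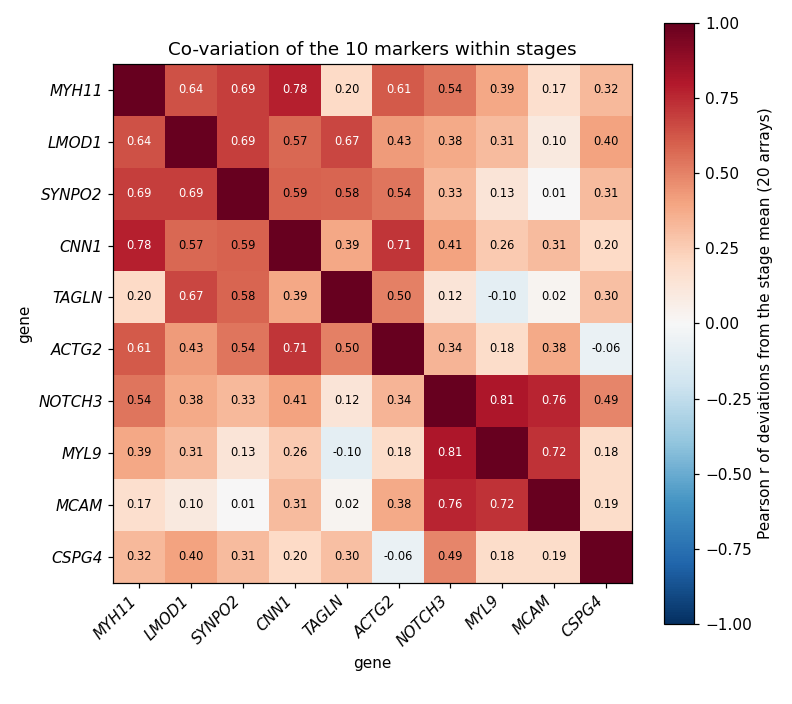
Pearson correlation of the deviations of 20 arrays from their stage mean, for each pair of the 10 markers (rows and columns), coloured by r. The median over the 45 pairs is 0.382, and the pair of NOTCH3 and MYL9 (0.81) and the pair of MYH11 and CNN1 (0.779) have the highest values.

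Within a stage, some pairs of contractile genes varied together from array to array. Deviations from the stage mean were correlated over the 20 arrays for all 45 pairs, with p-values from 100000 permutations within stages and adjusted over the 45. Of the 45, 6 passed by Pearson and by Spearman, and all 6 were positive. The share among pairs of other genes in these arrays was not measured. Neither the 6 nor the median r of 0.382 is therefore shown to be particular to these markers. MYH11 and CNN1 had r = 0.779 and rho = 0.80 (adjusted permutation p = 0.0201 and 0.0081), with r = 0.77 without the 2 arrays farthest from the median. TAGLN and LMOD1 had r = 0.665 and rho = 0.839 (adjusted permutation p = 0.0117 and 0.00135), with r = 0.769 without the 2 farthest. The other 4 pairs were CNN1 with ACTG2 (r = 0.714), MYH11 with SYNPO2 (0.69), MYH11 with LMOD1 (0.639) and TAGLN with SYNPO2 (0.581). None of the 6 involves a surface marker or MYL9. The permutations did not take the replicate number into account. In replicate 4, ACTG2, MYH11 and SYNPO2 lay above their stage mean at every stage. What part this has in the correlations was not tested.

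These 6 correlations did not rest on the very-late arrays. Over the 16 arrays of the other stages they were 0.739 to 0.858. Over the 13 arrays with high mitochondrial values, with deviations taken within that group, they were 0.733 to 0.866, and the 7 low arrays hold 4 arrays of 1 stage and single arrays of 3 others, too few for a value. Among MYL9, MCAM and NOTCH3, r was lower without the very-late arrays. NOTCH3 and MYL9 had r = 0.81 over 20 arrays (adjusted permutation p = 0.0632) and 0.588 over 16. NOTCH3 and MCAM had 0.758 (adjusted permutation p = 0.198) and 0.24 over 16, and MYL9 and MCAM had 0.72 (adjusted permutation p = 0.284) and 0.275 over 16. For all 3 genes very-late replicates 1 and 2 were the low arrays of that stage and replicates 3 and 4 the high ones.

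The genes most like the markers over the 20 arrays were named for the 4 markers with a called difference and a stage range of at least 1 log2 unit. The measure was Pearson's r over the 20 arrays against 14122 genes, as a description. TAGLN was most like SMURF1 (0.869), HEYL (0.86) and TPM2 (0.851), of which HEYL is a Notch target and TPM2 is beta tropomyosin. ACTG2 was most like OTUD7B (0.903), IFT20 (0.898) and ARHGEF10 (0.894). MYL9 was most like TP53INP2 (0.955), SCAP (0.95) and LOC721819 (0.949). MCAM was most like NLGN4X (0.985), STAR (0.964) and TMEM62 (0.963). STAR, which brings cholesterol into mitochondria for steroid synthesis, averaged 9.15 at very-late and 13.37 at late. Its r with MCAM within stages was 0.837.

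Other genes of the contractile and mural cell programme were taken from a list of 53, of which 35 had a probe set of their own symbol. ACTA2, DES, RGS5 and PDGFRB, further common markers of these cells, had none and are not analysed here. Each of the 35 is given by its highest probe set alone. Several have more, such as TPM2 with 7 and TPM1, NOTCH2 and PDGFB with 5 each, and their other probe sets are not described. In very-late against late 8 of the 35 genes fell and 2 rose, with a median of -0.34 over the 35, where 7.03% of all probe sets fell and 6.75% rose. Of the 26353 brighter probe sets, 26.6% passed in either direction, a share near that of the 35 genes. PDLIM3, an actinin-associated protein of muscle, had the largest difference, with 6.54, 7.49, 7.05 and 6.88 in the very-late arrays against 9.22, 9.51, 9.66 and 9.68 in the late arrays. All 4 very-late arrays lay below all 4 late arrays, and the fall was 2.53 ± 0.28 (adjusted p = 6.32e-06).

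HSPB6, the small heat shock protein of relaxing smooth muscle, had 5.46, 4.54, 5.56 and 5.57 in the very-late arrays against 7.41, 6.64, 6.89 and 6.81 in the late arrays, a fall of 1.66 ± 0.29. AOC3, an amine oxidase of smooth muscle and endothelium, fell by 1.29 ± 0.22. KCNJ8, the pericyte potassium channel subunit, fell by 1.05 ± 0.30 (adjusted p = 0.0217). PPP1R14A, the inhibitor of myosin phosphatase, fell by 0.48, the essential light chain MYL6 by 0.65, the collagen receptor ITGA1 by 0.62 and the filament protein SYNM by 0.55. Single arrays decided 4 of these calls. KCNJ8 lost its call without late replicate 2, 3 or 4 or very-late replicate 2, and ITGA1 without late replicate 1 or 3 or very-late replicate 1 or 2. SYNM lost it without late replicate 1 or very-late replicate 2, and MYL6 without late replicate 3 or 4. MYL6 also lost it with cyclic loess and on the 8 arrays of the 2 stages. It had 10.01 in very-late replicate 1, the array with the wide GAPDH gap, against 11.29, 11.18 and 11.08 in the other very-late arrays. Without that array the MYL6 difference was -0.35 and still passed.

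The 2 of 35 that rose, a share near that of all probe sets, were FLNA and NOTCH2. FLNA, the actin crosslinker filamin A, had 10.01, 10.10, 9.54 and 9.51 in the very-late arrays against 9.07, 8.70, 8.80 and 8.94 in the late arrays. The difference was 0.91 ± 0.17 (adjusted p = 0.000945), and all very-late arrays were above all late arrays. FLNA had been lower in late against early, by 1.04, and very-late against early was -0.13 ± 0.17 (adjusted p = 0.692). NOTCH2, a second Notch receptor, was higher by 0.51 ± 0.15 (adjusted p = 0.0240), a call lost without late replicate 1, 3 or 4 or very-late replicate 1 or 2.

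**Figure D4:**
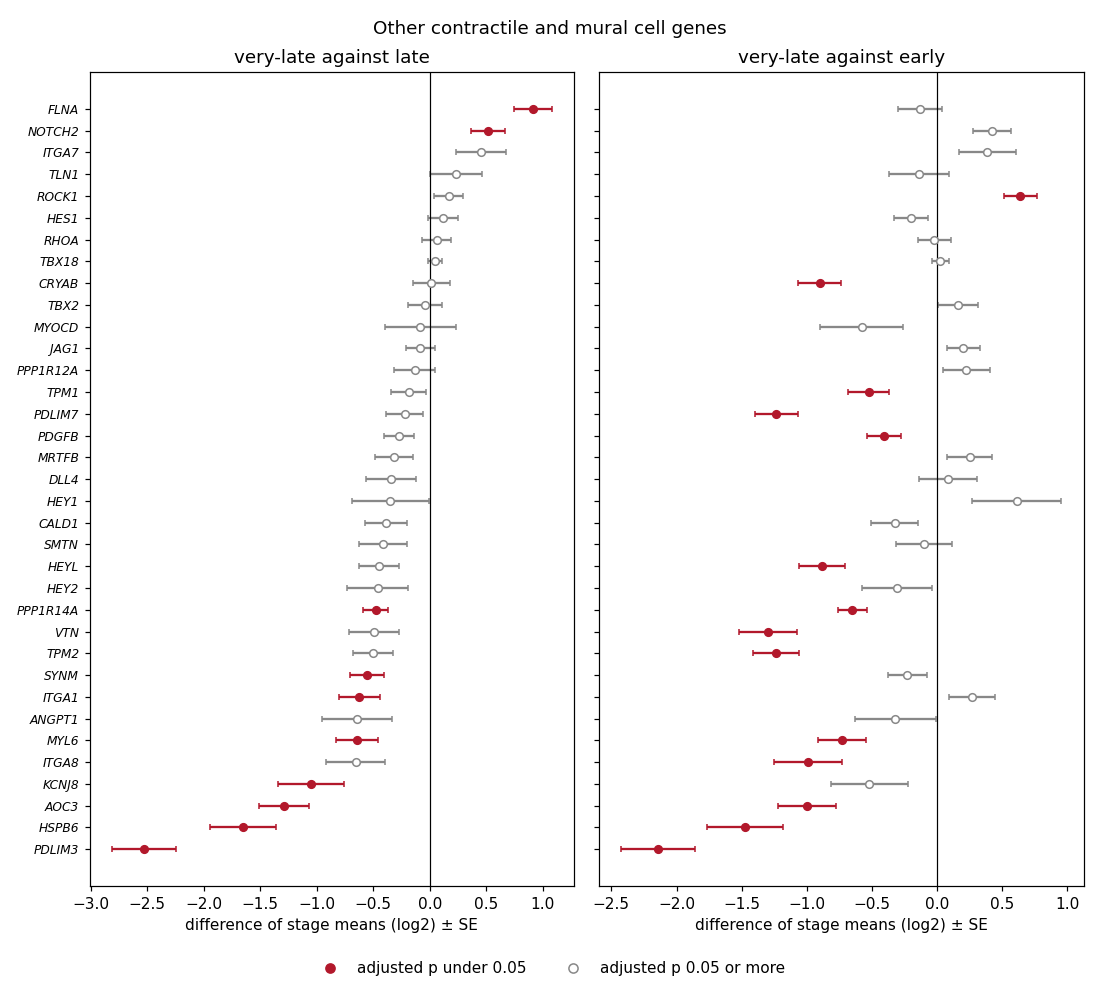
Difference in log2 value for 35 other contractile and mural cell genes (rows), very-late minus late on the left and very-late minus early on the right, with bars of ±1 SE. Filled points passed at an adjusted p under 0.05. Against late, PDLIM3 (-2.53) and HSPB6 (-1.66) lie farthest to the left and FLNA (0.91) farthest to the right.

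In very-late against early 13 of the 35 fell and 1 rose, with a median of -0.31, where 9.21% of all probe sets fell and 9.45% rose. Of the brighter probe sets, 34.7% passed in either direction. Those that fell included the tropomyosins TPM2 (-1.23 ± 0.18) and TPM1 (-0.53), PDLIM3 (-2.14), the LIM protein PDLIM7 (-1.23), the chaperones HSPB6 (-1.47) and CRYAB (-0.90), and VTN (-1.30). HEYL fell by 0.88 ± 0.18 (adjusted p = 0.00127) and PDGFB, the ligand that draws pericytes to vessels, by 0.41. ITGA8 (-0.99), MYL6 (-0.73), AOC3 (-0.998) and PPP1R14A (-0.65) made up the 13. ITGA8 averaged 4.13 at very-late, below the background limit of 4.30. Its call was lost on the 8 arrays of the 2 stages, without very-late replicates 1 and 2, and on the 13 high mitochondrial arrays. That of MYL6 was lost with cyclic loess and on the 8 arrays, and that of AOC3 without very-late replicates 1 and 2. ROCK1, the kinase that restrains myosin phosphatase, was higher by 0.64 (adjusted p = 0.00123). The call of TPM1 was lost without early replicate 1 or 4 or very-late replicate 3 or 4, and that of PDGFB without early replicate 1, 2 or 4 or very-late replicate 3 or 4 and with the replicate number as a block (adjusted p = 0.0624). Both calls were also lost with cyclic loess and on the 13 high mitochondrial arrays, and that of PDGFB with a trended robust prior.

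Part of this list had moved before the very-late stage. In late against early 5 of the 35 fell (TPM2, FLNA, PDLIM7, CRYAB and VTN) and 2 rose (ITGA1 and ROCK1), where 3.97% of all probe sets fell and 3.61% rose. In mid-late against early 4 fell (TPM2, FLNA, PDLIM7 and CRYAB) and ITGA1 rose by 1.10, where 1.62% of all probe sets rose. Of the brighter probe sets, 16.1% passed in either direction in late against early and 8.89% in mid-late against early. In mid against early CRYAB alone passed, at -1.05 (adjusted p = 0.0146), where 0.175% of all probe sets fell. MYOCD, the coactivator that drives smooth muscle genes, lay near the background with stage means of 4.17 to 4.97 and was -0.08 in very-late against late (adjusted p = 0.921). Of the Notch ligands JAG1 was -0.08 (adjusted p = 0.767) and DLL4 -0.34 (adjusted p = 0.393) in that comparison.

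Markers of other cell types also moved at the very-late stage. In very-late against late 7.03% of all probe sets fell and 6.75% rose. Of the brighter probe sets, 26.6% passed in either direction. All 4 measured of 7 listed steroidogenic genes of luteal cells fell in that comparison, with array means of 6.38 to 8.39 at very-late and 10.72 to 11.84 at late. Of 8 measured of 9 endothelial markers, EMCN (-1.10) and KDR (-0.94) fell and 0 rose, with array means of 7.57 to 8.69 at very-late and 8.41 to 8.59 at late. The other 6 did not pass and did not all go in the same direction, and the median over the 8 was -0.38. In very-late against early 1 of the 8 rose and 0 fell, where 9.45% of all probe sets rose. Of 6 measured of 7 fibroblast markers, COL1A1 (-1.51) and COL1A2 (-0.89) fell in very-late against late, with array means of 7.74 to 8.30 at very-late and 8.46 to 8.82 at late. The other 4 did not pass and did not all go in the same direction, and the median over the 6 was -0.74. Of 7 measured of 8 macrophage markers, CD68 (2.70) and CD14 (1.67) rose, with array means of 8.17 to 8.63 at very-late and 7.64 to 8.05 at late. The other 5 did not pass and lay between C1QA (-1.22) and CSF1R (0.66), and the median over the 7 was 0.05. The array means of the 10 mural cell markers were 6.97 to 7.76 at very-late and 7.88 to 8.32 at late. What part these shifts have in the marker differences was not tested.

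The arrays that stand apart bear on the same stage. ACTG2, MCAM and TAGLN were lowest in very-late replicate 1, the array with the wide GAPDH gap, and very-late replicate 2 was a low mitochondrial array. On the 13 arrays with high mitochondrial values 10 of the 23 probe sets fell in very-late against late and 9 in very-late against early, where 11.7% and 15.5% of all probe sets passed in either direction. Without very-late replicates 1 and 2 together 8 passed in very-late against late and 9 in very-late against early, where 8.92% and 15.8% of all probe sets did. ACTG2, MCAM and MYL9 passed in all 30 alternative settings of both comparisons.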

How the data were processed

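Total RNA of 20 rhesus macaque corpora lutea was labelled in 1 cycle with biotin and hybridised to Affymetrix arrays, per the labels' protocols. The deposited values are log2 intensities made by the authors with RMA, per the submitters' processing notes, with a single value for each probe set in each array. Which RMA version and chip definition were used is not given in the sources used here. The range of the values, 2.48 to 14.28, gave the log2 scale, and no further scaling was applied. Stages were taken from the sample titles.

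The table has 52865 probe sets, and without its 158 array controls 52707 were tested. The platform annotation gave 24956 probe sets 1 symbol, 361 several and 27390 none. The gene identifier of 9 of the 10 markers is in the current RefSeq table, and that of TAGLN was not matched. In R 4.3.3, limma 3.58.1 fitted 5 stage means to all 20 arrays (15 residual and 2.75 prior degrees of freedom), with Benjamini-Hochberg adjustment over the 52707 probe sets in each comparison. The number of arrays limits the precision. Every probe set of the 10 genes was described. Other contractile genes were given by counts, with values for those that passed in very-late against late or early. MYOCD, JAG1 and DLL4 were added after their values were seen. The marker genes, the lists and this rule were chosen with earlier results of these data known. Lists of endothelial, macrophage, fibroblast, steroidogenic, lymphocyte, surface epithelial and erythrocyte markers were counted. The biological replicates are as the titles state them. The fit was tested on simulated data. Alternatives were cyclic loess, median centring, no dim probe sets, array weights, a trended robust prior, a replicate block, fits on 8 arrays, leaving out each array, leaving out very-late replicates 1 and 2, and a mitochondrial term. A fit on 13 arrays was added after seeing the data.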

Additional observations from a re-analysis of the deposited data

Results flagged for a closer look

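Each of the 50 groups of 4 arrays, 10 markers by 5 stages, was searched for an array far from the other 3, and chance alone marks about 1 group in 20. In 4 groups an array stood apart. For ACTG2, early replicate 4 was the highest of its stage at 9.82, where the other 3 lay between 8.81 and 8.95. For MYH11, mid-late replicate 4 was the highest at 9.14, where the others lay between 7.75 and 7.99. For SYNPO2, mid-late replicate 4 was again the highest at 5.50, where the others lay between 4.75 and 4.83. For NOTCH3, late replicate 2 was the lowest at 8.41, where the others lay between 8.78 and 8.81.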

How the results depend on the processing

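No called result turned its direction under any alternative run. In very-late against late the count of marker probe sets that passed, 10, was 8 with the replicate number as a block and 8 to 10 with any 1 array left out, and in very-late against early, 10, it was 10 with the block and 9 to 11. Among the calls printed above, the block removed those of both TAGLN probe sets in very-late against late (the second at adjusted p = 0.0530), of PDGFB in very-late against early and of VTN in late against early (adjusted p = 0.0636), and MYH11 passed in very-late against mid-late. Over all probe sets, same-numbered arrays did not deviate together: over 40 pairs r was -0.208 to 0.214, and 6 were over 0.1. The numbers were therefore not taken to pair the animals. Single markers could differ from this. In replicate 4, ACTG2 lay above its stage mean at every stage (by 0.69, 0.30, 0.74, 0.59 and 0.37 from early to very-late). MYH11 did too (0.37, 0.22, 0.93, 0.39 and 0.25), and in replicate 2 both lay below it at every stage. SYNPO2 in replicate 4 also lay above its stage mean at every stage (0.17, 0.30, 0.54, 0.45 and 0.08). MCAM and MYL9 in replicate 4 lay below it at every stage but very-late. The test of any difference called 9 to 11 with 1 array left out. In mid-late against early the count, 1, was 2 without very-late replicates 1 and 2, 0 on the 13 arrays with high mitochondrial values, and 0 to 2 with 1 array left out, where 0 came from leaving out any early array or mid-late replicate 1, 2 or 3 and 2 from leaving out very-late replicate 2. In late against early the count, 0, was 1 with array weights, 1 without very-late replicates 1 and 2, and 0 to 1 with 1 array left out (1 without early replicate 1). Mid against early, mid-late against mid and late against mid-late stayed at 0 in every setting run.

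Of the 35 other contractile genes, the 8 that fell in very-late against late were 5 on 8 arrays, 5 without very-late replicates 1 and 2, 5 on the 13 arrays, and 5 to 9 with 1 array left out (5 without late replicate 3 or very-late replicate 2). The 2 that rose were 1 with array weights, 1 without very-late replicates 1 and 2, 1 on the 13 arrays and 1 to 2 with 1 array left out (1 without late replicate 1, 3 or 4 or very-late replicate 2). In very-late against early the 1 that rose was 2 without dim probe sets, 2 with cyclic loess, 4 without very-late replicates 1 and 2, 2 on the 13 arrays and 1 to 3 with 1 array left out (3 without very-late replicate 2, and 2 without early replicate 1, mid-late replicate 2 or 4 or very-late replicate 4), and 11 to 13 fell. Over all probe sets the share called in very-late against late, 13.8%, was 8.68% on 8 arrays. With the mitochondrial term, mid against early (0.362%) went to 0.036% and late against mid (2.17%) to 0.195%. With 1 array left out the shares called over all probe sets also moved: mid against early (0.362%) to 0.0569% without mid replicate 3 and 0.822% without very-late replicate 2, mid-late against early (3.73%) to 1.53% without mid-late replicate 3, late against mid (2.17%) to 0.926% without late replicate 3 and 3.41% without very-late replicate 2, and late against early (7.58%) to 4.91% without early replicate 3. The cause of these shifts was not tested, beyond the fewer arrays in some of the fits. The marker probe sets below the background, 4 of 23, limit what those probe sets can show.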

Other observations

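Markers of cell types that the vessel wall does not hold were measured as well. Of 3 measured of 6 lymphocyte markers, CD8A was higher in very-late against late by 0.60 ± 0.16 (adjusted p = 0.0131), while 2 of the 3 had stage means below the background. Of 5 surface epithelial markers none passed in very-late against late, and KRT8 was lower in very-late against early by 2.63 ± 0.40 (adjusted p = 9.17e-05). Of 2 measured of 4 erythrocyte markers none passed in these comparisons, and HBB was higher in mid against early by 1.44 ± 0.26 (adjusted p = 0.0270). That comparison is largely confounded with the mitochondrial split of the arrays.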
